A study of Rattus norvegicus with 9 samples.

Results

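The simple epithelial keratins Krt7, Krt8, Krt18 and Krt19 were followed in cultured rat ureteric buds, the epithelial outgrowths that form the collecting duct system of the kidney. They were taken by gene symbol from the platform's probe table. Each of the 4 genes had 1 probe set, so they are 4 of the 10412 genes that the table names singly on the array. Buds were isolated from Sprague-Dawley rat embryos at embryonic day 13 and cultured for 4 days in a gel mixed from growth factor reduced Matrigel (50%) and type 1 collagen (50%). Every culture received FGF1 at 250 ng/ml and GDNF at 125 ng/ml. HRG cultures also received human recombinant heregulin alpha, an ErbB receptor ligand, at 500 ng/ml. PTN cultures had pleiotrophin, a secreted protein that binds heparin, at about 3 µg/ml; its source was medium that cells of a metanephric mesenchymal line had conditioned. BSN cultures received that whole conditioned medium. Each medium had 3 samples of 3 buds each, hybridised to 9 arrays, and the design calls the samples biological replicates. The series title lists PTN as branching while the PTN samples are described as non-branching, so groups are named by medium here. No culture received FGF1 and GDNF alone, so a higher signal in a medium cannot be told apart from a lower signal in the medium set against it.

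Keratins form the intermediate filaments of epithelial cells. Each filament is built from pairs of a type I and a type II chain, and a chain without a partner of the other type is degraded. Krt8 (type II) and Krt18 (type I) make up the basic pair of simple epithelia. Krt7 (type II) and Krt19 (type I) are added in ductal epithelia, among them the ureteric bud and the collecting duct. All 4 messages were read here, and protein was not measured.

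Across the 3 media the 4 keratins did not share a common pattern. Krt19 was high in HRG buds and low in both other media. Krt7 was low in PTN buds and high in both other media. Krt8 and Krt18 also had their lowest means in PTN, as all 4 genes did, with smaller differences there than Krt7. Krt8 stood in the order HRG, BSN, PTN, as Krt19 did, while HRG and BSN overlapped for Krt18. The Krt8 call in PTN against BSN was unstable. The ductal partners Krt19 and Krt7 thus differed in where BSN stood, and the basic partners Krt18 and Krt8 were lower in PTN by unequal amounts.

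Promoter sequences were matched for 2 of the 4 genes, the basic pair Krt8 and Krt18, and these are shown. In the RefSeq rat genes (GRCr8), Krt8 and Krt18 are neighbouring coding genes on chromosome 7, although Krt18 is of type I. Krt7 lies on the same chromosome, between Krt80 and Krt87, and Krt19 lies on chromosome 10, between Krt15 and Krt9. Each promoter runs from 250 bases before to 50 bases after the annotated start, as held by RefSeq for GRCr8. That of Krt8 spans chr7:135010290-135010589 on the minus strand, and that of Krt18 spans chr7:135035918-135036217 on the plus strand. Capitals mark matches, on either strand, to the TATA box letters TATAA, the GC box letters GGGCGG, the AP-1 letters TGANTCA and the CACCC box letters CCACCC.
Krt8: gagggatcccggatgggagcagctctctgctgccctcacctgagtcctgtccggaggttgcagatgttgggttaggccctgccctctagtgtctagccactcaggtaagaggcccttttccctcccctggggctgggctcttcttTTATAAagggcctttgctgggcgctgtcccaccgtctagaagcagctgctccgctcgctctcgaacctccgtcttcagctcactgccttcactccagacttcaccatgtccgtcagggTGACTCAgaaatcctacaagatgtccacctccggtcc
Krt18: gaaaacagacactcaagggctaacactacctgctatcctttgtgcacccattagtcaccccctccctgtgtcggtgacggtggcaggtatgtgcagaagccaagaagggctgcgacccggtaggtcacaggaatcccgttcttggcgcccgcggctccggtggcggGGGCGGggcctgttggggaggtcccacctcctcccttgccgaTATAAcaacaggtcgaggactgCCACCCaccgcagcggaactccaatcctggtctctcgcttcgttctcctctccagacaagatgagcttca
TATAA was found in both promoters, with its first base at position -104 in Krt8, where it overlaps a match on the opposite strand at -105, and at -42 in Krt18. The GC box at -84 and the CACCC box at -20 were found in Krt18, and the AP-1 letters at position 14 in Krt8. In Krt8 the annotated start falls on the atg of the start codon, so positions there count from the coding start and the AP-1 letters lie inside the coding sequence. Of 33469 rat promoters of the same length, 26.2% held the TATA box letters on either strand, 33.1% the GC box, 29.4% the CACCC box and 7.33% the AP-1 letters. The motifs were chosen after the sequences had been seen, and a match is a description of letters only.

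Signals are the authors' linear GCOS values, in arbitrary units set by the scanner software, and their number of arrays limits the precision. A probe set was tested when it lay above its array's 40th percentile on at least 3 arrays, which kept 10106 probe sets, and all 4 keratins lay above it on all 9. Fold changes and log2 differences come from a limma fit to log2(signal + 16) across all kept probe sets, with Benjamini-Hochberg adjustment and a threshold of 0.05. The scale of a probe set depends on its probes, so no gene's level is set against another's. For the actin control, signal at the 3' end over that at the 5' end averaged 25.2 ± 5.86 in HRG, 16.6 ± 1.40 in PTN and 33.2 ± 4.91 in BSN (SD, n = 3 each). The 3' actin signal averaged 13030 ± 1234 in HRG, 8267 ± 2298 in PTN and 22019 ± 4415 in BSN. For the GAPDH control PTN stood highest rather than lowest. Its 3' signal averaged 7212 ± 22.4 in HRG, 9968 ± 798 in PTN and 9183 ± 703 in BSN. Its ratio of 3' to 5' signal averaged 2.92 ± 0.802 in HRG, 5.14 ± 1.98 in PTN and 4.57 ± 1.11 in BSN. Both controls averaged lower in HRG than in BSN, in 3' signal and in ratio. All 4 keratins had their lowest mean in PTN, as actin did and GAPDH did not, and the part of either control in the results was not tested. PTN replicate 1 stood apart from its group, with a mean Pearson's r of 0.946 to the other PTN arrays across kept probe sets, against 0.962 to 0.976 for the other 8 arrays. In bulk RNA, fewer cells that express a keratin and less keratin RNA per cell cannot be told apart.

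**Figure D1:**
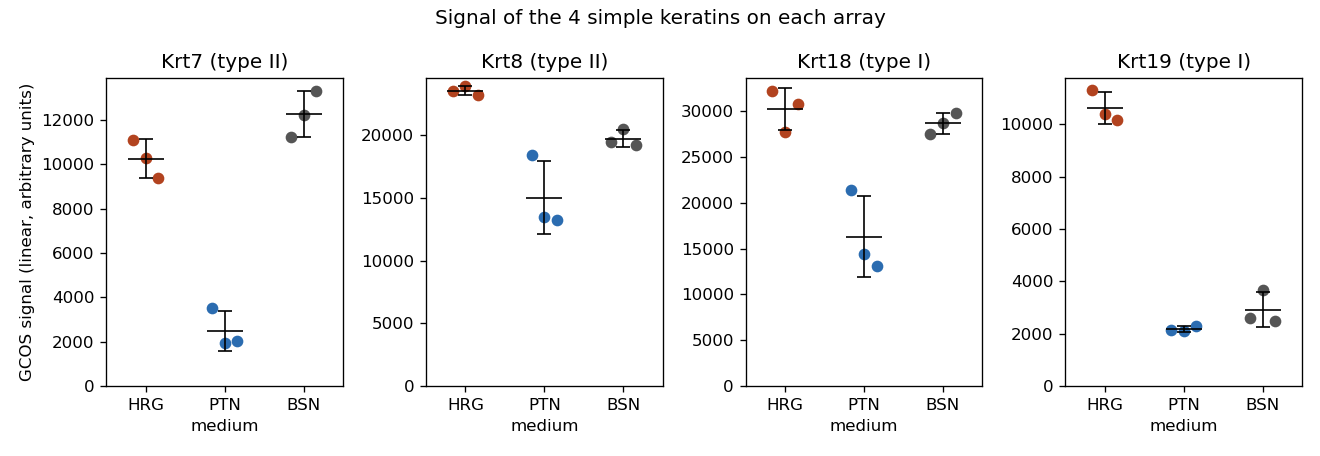
GCOS signal (linear, arbitrary units, each panel on its own scale from 0) of Krt7, Krt8, Krt18 and Krt19 by medium, with 1 point per array and a bar for the mean with its SD (n = 3). Krt19 stands high in HRG alone, Krt7 stands low in PTN alone, and PTN replicate 1, the leftmost PTN point, lies above the other PTN arrays for Krt7, Krt8 and Krt18.

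Krt19, the short type I keratin of ducts, had signals of 11298, 10414 and 10154 in HRG buds, 2127, 2123 and 2292 in PTN buds, and 2609, 3685 and 2483 in BSN buds. Every HRG array lay far above every array of the other media, and the PTN arrays lay just below the BSN arrays without overlap. Krt19 rose 4.84-fold in HRG against PTN (log2 difference 2.28 ± 0.155 SE, limma adjusted p = 7.89e-07). It rose 3.67-fold in HRG against BSN (log2 difference 1.88 ± 0.155 SE, adjusted p = 5.15e-06). By moderated t these were the rises ranked 13 and 18 among 10106 probe sets. PTN against BSN did not pass (log2 difference -0.40, 95% interval -0.74 to -0.06 before adjustment, adjusted p = 0.0827). The order of the media was HRG, then BSN, then PTN, and the lower 2 did not differ at the threshold.

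Krt7, the type II keratin of ducts, differed from Krt19 in that BSN stood with HRG. Its signals were 11109, 10299 and 9382 in HRG, 3545, 1926 and 2031 in PTN, and 11229, 12252 and 13300 in BSN. All PTN arrays lay far below the rest, and the HRG arrays lay just below the BSN arrays without overlap. Krt7 fell to a mean of 2501 ± 906 in PTN, against 12260 ± 1035 in BSN (SD, n = 3 each). This log2 difference of -2.34 ± 0.20 SE was the fall ranked 20 among 10106 (limma adjusted p = 1.59e-05), and BSN was 5.06-fold higher. In HRG against PTN Krt7 rose 4.24-fold (log2 difference 2.08 ± 0.20 SE, adjusted p = 1.17e-05). HRG against BSN did not pass (log2 difference -0.26, 95% interval -0.69 to 0.18, adjusted p = 0.449). PTN replicate 1 was the highest PTN array, and without it the log2 difference was 2.36 in HRG against PTN and -2.62 in PTN against BSN.

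Krt18, the type I chain of the basic pair, had signals of 32195, 27717 and 30781 in HRG, 21372, 14439 and 13070 in PTN, and 27486, 28643 and 29784 in BSN. The PTN arrays lay below all others, and the HRG and BSN arrays overlapped. It rose 1.89-fold in HRG against PTN (limma adjusted p = 0.00117), and fell by 0.85 ± 0.161 SE on the log2 scale in PTN against BSN (adjusted p = 0.00311). HRG and BSN were not separated (log2 difference 0.08, 95% interval -0.27 to 0.43, adjusted p = 0.815), and the sign turned to -0.01 after quantile normalization.

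Krt8, the type II chain of the basic pair, had signals of 23483, 23922 and 23224 in HRG, 18390, 13450 and 13203 in PTN, and 19480, 20470 and 19181 in BSN. No 2 media overlapped, and the HRG arrays were the highest. Krt8 rose 1.59-fold in HRG against PTN (limma adjusted p = 0.00299). HRG against BSN did not pass (log2 difference 0.26, 95% interval -0.03 to 0.55, adjusted p = 0.239). PTN against BSN passed narrowly (log2 difference -0.41 ± 0.135 SE, adjusted p = 0.0453), and this call was unstable. It was lost without any single array other than PTN replicate 1, with adjusted p up to 0.157 (without PTN replicate 3), and without PTN replicate 1 the adjusted p was 0.00183. It was also lost after centring each array on its median (log2 difference -0.20, adjusted p = 0.31).

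**Figure D2:**
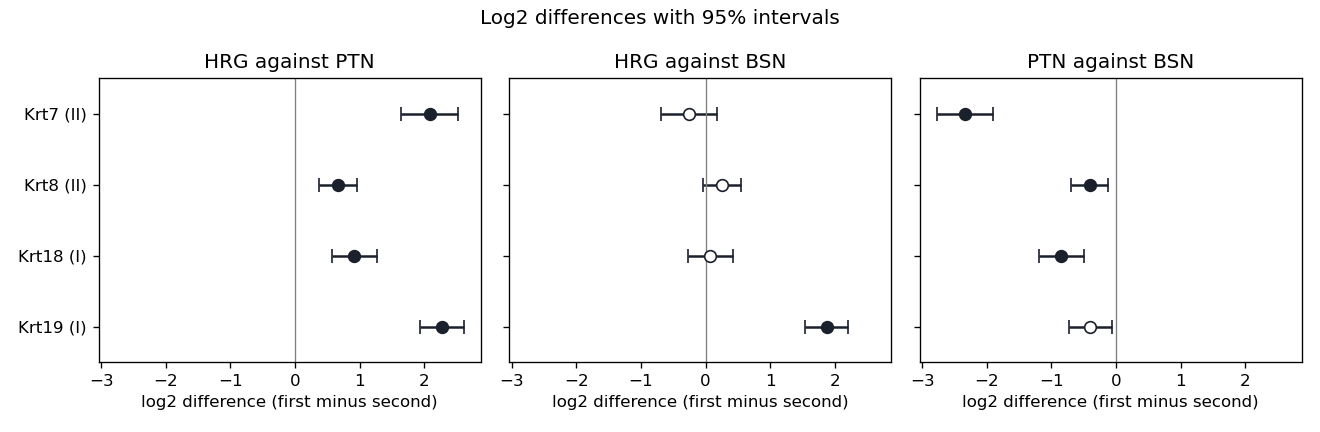
Log2 difference of each keratin in the 3 comparisons, with the first-named medium minus the second (points, with moderated 95% intervals), where filled points passed an adjusted p of 0.05. All 4 genes lie above 0 in HRG against PTN, Krt19 alone passes in HRG against BSN, and Krt7, Krt8 and Krt18 pass below 0 in PTN against BSN.

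Counted together, 4 of 4 passed as higher in HRG against PTN, where 14.1% of all tested probe sets did. The arrays of HRG and PTN did not overlap for any of the 4, in a comparison where 22.9% of probe sets were higher in HRG without overlap. Against BSN, 1 of 4 was higher in HRG, where 6.92% of probe sets were. Krt8 and Krt19 were higher in HRG than in BSN without overlap, a pattern found in 16.1% of probe sets. Krt7 was lower in HRG than in BSN without overlap, a difference that did not pass. The share of probe sets with that pattern was not counted, so nothing is read from it. In PTN against BSN 3 of 4 were lower, where 13.4% of probe sets were, and all 4 were lower without overlap, where 23.8% were. These comparisons share arrays, so their counts are not independent. The 4 genes were not drawn at random, so no test was made of these counts.

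The scale of the arrays matters for the smaller differences. The median log2 difference over tested probe sets was 0.08 in HRG against PTN, -0.04 in HRG against BSN and -0.11 in PTN against BSN. After centring each array on its median over all probe sets these were -0.03, 0.06 and 0.10. With that centring Krt19 and Krt7 kept log2 differences of 2.16 and 1.97 in HRG against PTN, and Krt7 kept -2.13 in PTN against BSN. The Krt8 difference in PTN against BSN was the smallest of the keratin differences that passed, and it was the only one of these lost under this centring.

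Type I and type II partners were compared by taking, in each array, the log2 signal of the type I gene minus that of the type II gene. The level of such a difference has no meaning between probe sets, and only its change between media was read. All 6 differences among the 4 genes were tested across the 3 media with an exact permutation test of the F statistic over 1680 divisions of the arrays, where 0.00357 is the smallest p it can give. All 6 passed after Benjamini-Hochberg adjustment over the 6 differences, so each difference between 2 of these keratins changed with the medium by this test. The 6 differences share genes and arrays, so they are not independent results. Between any 2 media the exact two-sided permutation p cannot fall below 0.1 with 3 arrays against 3. The shifts between media are therefore given as sizes.

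The basic partners came closest to moving in step. Krt18 minus Krt8 was lower than its BSN mean by 0.32, 0.44 and 0.55 on the PTN arrays and by 0.08, 0.33 and 0.13 on the HRG arrays. The BSN arrays lay within 0.10 of their mean, and neither medium overlapped BSN. The shift was -0.44 in PTN against BSN and 0.26 in HRG against PTN, where the arrays overlapped (exact permutation p over the media = 0.00714, adjusted 0.0107). Krt18 thus lost more signal than Krt8 in PTN buds.

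By the same measure the ductal partners came apart most, in HRG against BSN. Krt19 minus Krt7 stood 2.10, 2.10 and 2.19 above its BSN mean on the HRG arrays and 1.35, 2.22 and 2.25 above it on the PTN arrays. A shift of 2.13 in HRG against BSN and of 1.94 in PTN against BSN was thus measured, the first with a rise of Krt19 in HRG and the second with a fall of Krt7 in PTN. HRG and PTN overlapped in this difference (exact permutation p over the media = 0.0357, adjusted 0.0357). Its shift in HRG against PTN was 0.19, smaller than the 0.26 of the basic partners. With media permuted only within replicate numbers, a paired form of the test, p was 0.111 for this difference and for Krt19 minus Krt8.

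The mixed partners followed from these moves. Krt18 minus Krt7 was 1.36, 1.67 and 1.45 above its BSN mean on the PTN arrays, and 0.31, 0.20 and 0.49 above it on the HRG arrays (exact permutation p = 0.00357, adjusted 0.0107). All 3 media were separate from each other in this difference. Krt19 minus Krt8 was 1.71, 1.57 and 1.58 above its BSN mean on the HRG arrays, while PTN and BSN arrays overlapped around 0 with a shift of 0.01 (exact permutation p = 0.0357, adjusted 0.0357).

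Members of the same type also parted. Krt19 minus Krt18, both type I, shifted by 1.80 in HRG against BSN and by 1.35 in HRG against PTN (exact permutation p over the media = 0.00714). Krt7 minus Krt8, both type II, shifted by -1.93 in PTN against BSN and by 1.42 in HRG against PTN (exact permutation p = 0.00357).

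**Figure D3:**
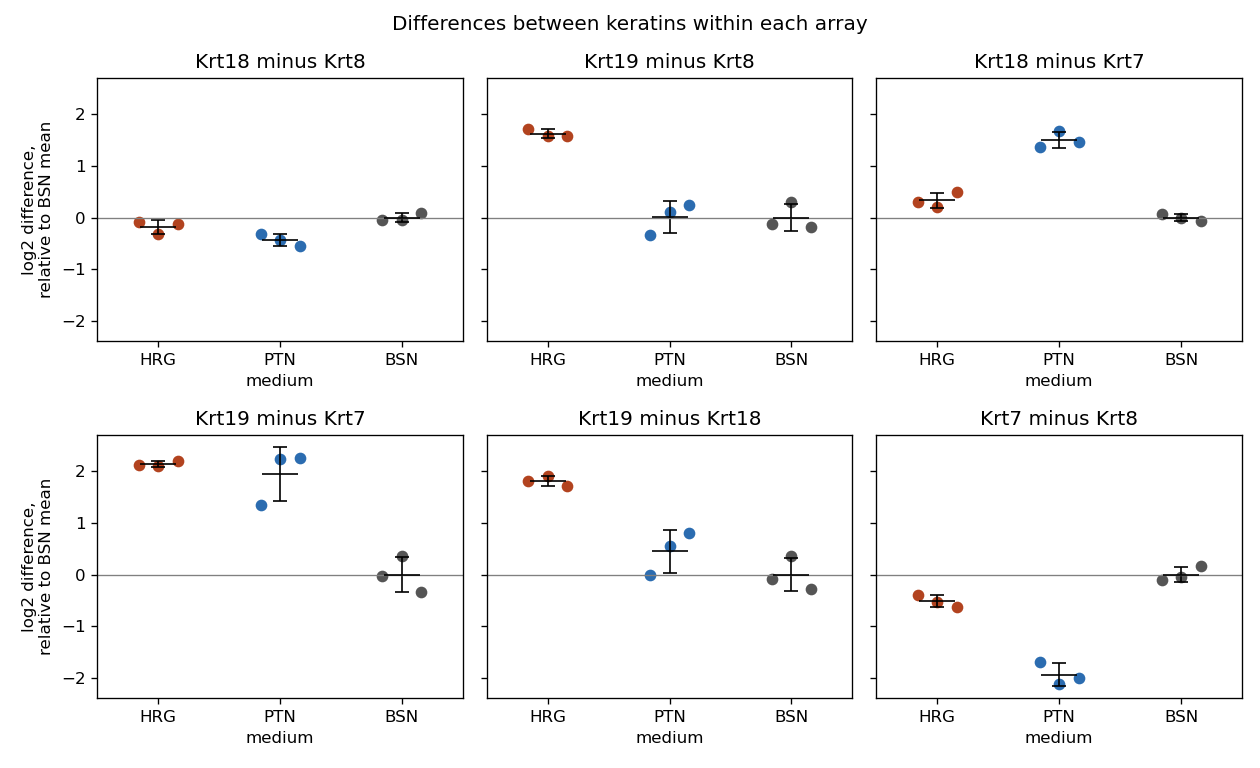
Log2 difference between 2 keratins within each array, relative to its mean on the BSN arrays (vertical axis, shared by all panels), by medium, with 1 point per array and a bar for the mean with its SD (n = 3). Krt18 minus Krt8 stays within 0.55 of the BSN mean, while Krt19 minus Krt7 lies 1.35 to 2.25 above it on all HRG and PTN arrays.

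The other 12 keratin genes named on the array, with 14 probe sets, were dim. They form the filaments of stratified, cornifying and hair epithelia, apart from Krt20, which marks umbrella cells of the bladder and gut epithelium. Probe sets of 4 genes passed the filter (Krt4, Krt5, Krt10 and Krt12), and none of these 4 differed in any comparison. Over all tested probe sets, 14.1% were higher and 11.7% lower in HRG against PTN, and 6.92% and 8.86% in HRG against BSN. In PTN against BSN the shares were 9.15% and 13.4%. With 4 genes, the absence of calls does not set them apart from such shares. Krt5, the type II keratin of basal cells, averaged 940 ± 46.7 in HRG, 886 ± 240 in PTN and 853 ± 115 in BSN. Its partner in basal cells, Krt14, stayed below the 40th percentile on all 9 arrays, at 184 ± 66.0 in HRG, 240 ± 99.2 in PTN and 217 ± 112 in BSN. Krt6c, Krt13, Krt15, Krt20, Krt36 and Krt79 also stayed below that percentile on every array, and Krt1 was above it on 2. The largest signal among these 14 probe sets was 1072, for Krt4 in HRG replicate 1. The summed signal of the 12 genes, by their brightest probe sets, was 5817 to 6064 in HRG, 4597 to 5899 in PTN and 5443 to 6477 in BSN.

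**Figure D4:**
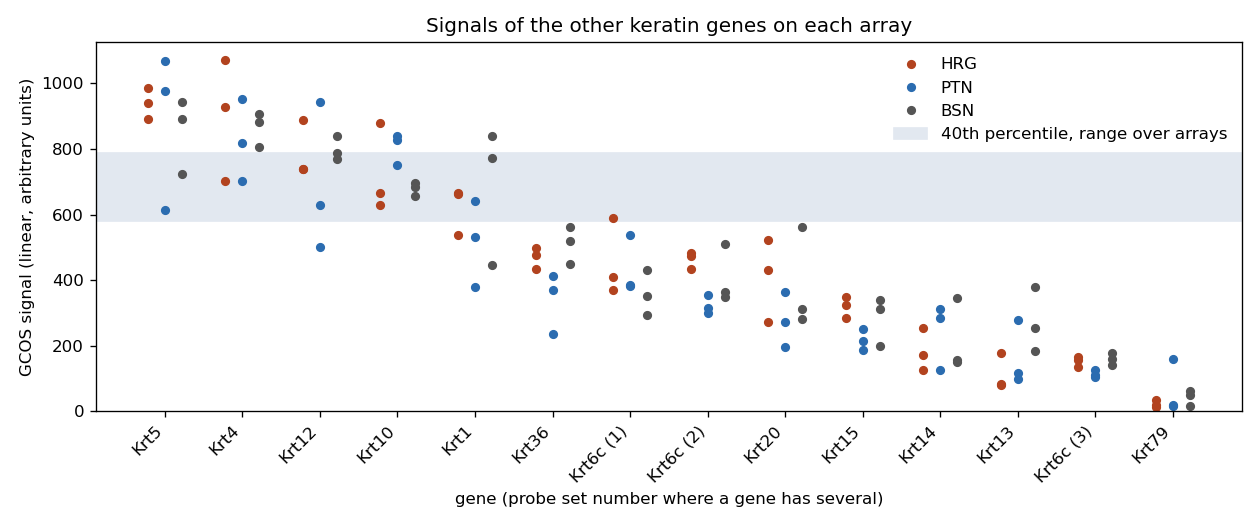
GCOS signal (linear, arbitrary units) of the 14 probe sets of the other 12 keratin genes, with 1 point per array coloured by medium. The grey band spans the arrays' 40th percentiles (580 to 788), and Krt4, Krt5, Krt10 and Krt12, the 4 genes that passed the filter, lie near or just above it in all 3 media.

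Markers of other epithelia and cell types were read beside the keratins. Over all tested probe sets, 14.1% were higher and 11.7% lower in HRG against PTN. The shares were 6.92% and 8.86% in HRG against BSN, and 9.15% and 13.4% in PTN against BSN. A list with few genes above the filter may hold no call at such shares. Of 10 measured genes of stratified epithelium, 4 passed the filter and Sprr1a alone differed. Sprr1a, a precursor of the cornified envelope, averaged 21812 ± 5690 in HRG, 561 ± 199 in PTN and 688 ± 188 in BSN, the same order of media as for Krt19. Its part in the Krt19 result was not tested. Ivl, the envelope protein involucrin, stayed below the 40th percentile on all arrays. Of 4 measured urothelial markers only Krt5 passed the filter, and Foxa1 and Krt20 were below the percentile throughout. Among 9 measured genes of ureteric epithelium 7 passed the filter, including Cdh1 and Epcam, which hold epithelial cells together, and Pax8 was below the percentile throughout. Of these 7, Ret, the receptor for GDNF at the bud tip, averaged 918 ± 171 in HRG, 18756 ± 850 in PTN and 13512 ± 1883 in BSN. Lhx1, a transcription factor of the bud, averaged 1907 ± 399 in HRG, 4734 ± 929 in PTN and 4839 ± 317 in BSN, and both passed as lower in HRG against each other medium. Cdh16, the kidney cadherin of tubules, averaged 7618 ± 906 in HRG, 4618 ± 166 in PTN and 7780 ± 1237 in BSN, lowest in PTN like Krt7. The part of these genes in the keratin results was not tested. The summed signal of the ureteric list was 91343 to 109874 in HRG, 106838 to 117557 in PTN and 113655 to 121436 in BSN. Such a sum weighs each gene by the scale of its probe set, and this one includes Ret, which was low in HRG. Of 13 measured genes of mesenchyme and stroma 5 passed the filter and none differed, although 1 passed as lower in HRG against PTN without PTN replicate 1. In that list Wt1, Pdgfra, Pdgfrb, Gdnf, Twist1, Lum and Col6a1 stayed below the percentile. The summed signal of the mesenchyme and stroma list was 5205 to 5920 in HRG, 4850 to 6123 in PTN and 5947 to 6899 in BSN. It includes these 7 genes below the percentile. Of 9 nephron markers only Lrp2, an endocytic receptor of the proximal tubule, passed the filter. It averaged 4780 ± 933 in HRG, 2092 ± 409 in PTN and 1513 ± 696 in BSN, and passed as higher in HRG in both comparisons, although the call against PTN was lost without HRG replicate 1 (adjusted p = 0.0555). Of 10 endothelial and blood markers 2 passed the filter, and Kdr averaged 329 ± 27.6 in HRG, 840 ± 229 in PTN and 742 ± 29.5 in BSN.

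Keratin filaments are anchored to desmosomes and to the cell cortex by cytolinker proteins. Of 11 measured genes of this group, 6 were higher in HRG than in PTN, 1 was lower and 4 did not pass, where 14.1% of all tested probe sets were higher and 11.7% lower. Their median log2 difference was 0.47, against 0.08 over all 7458 tested genes. Evpl, encoding the cytolinker envoplakin, averaged 1362 ± 81.3 in HRG, 302 ± 135 in PTN and 512 ± 68.6 in BSN (SD, n = 3 each). It met the filter only through the 3 HRG arrays, where it is high, so its calls here and against BSN are no support for the counts. Itgb4 met it only through the 3 PTN arrays. The list median includes both genes, so it is no support either. Dsc2, a desmosomal cadherin, averaged 8351 ± 604 in HRG and 3581 ± 701 in PTN, 2.35-fold higher. Pkp4, a catenin of junctions, was the lower gene, at 5735 ± 523 in HRG and 10445 ± 1350 in PTN. Plec, the cytolinker plectin, rose 1.80-fold, and Pkp2, Dsp and Jup completed the 6. The calls of Jup and Dsp were lost without PTN replicate 1 (adjusted p = 0.0775 and 0.0725), PTN replicate 2, HRG replicate 2 or HRG replicate 3, and Jup also without HRG replicate 1 or BSN replicate 1. Median centring removed both calls too (0.1068 for Jup and 0.2036 for Dsp), and quantile normalization removed that of Jup (0.1085). The Pkp2 call was lost without HRG replicate 3 (0.0557). Against BSN, where 6.92% of all tested probe sets were higher and 8.86% lower, 4 of 11 were higher in HRG (Evpl, Dsc2, Dsp and Pkp2) and 1 was lower (Tchp, a keratin-binding protein), and 4 of these 5 calls, all but Evpl, were lost when an array was left out. Evpl, the call that held, was tested only because its HRG arrays met the filter. In PTN against BSN, where 9.15% of all tested probe sets were higher and 13.4% lower, 1 was higher (Pkp4) and 3 were lower (Plec, Tchp and Dsc2), and these 3 lower calls were each lost without at least 1 array.

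Proteins that bind keratins or act on them gave 6 higher, 1 lower and 9 that did not pass among 16 measured in HRG against PTN, with a median log2 difference of 0.20 (all tested probe sets, 14.1% higher and 11.7% lower). Hspb1, a small heat shock protein that associates with keratin filaments, averaged 917 ± 69.9 in HRG and 148 ± 162 in PTN. Like Evpl, it met the filter only through the 3 HRG arrays, and Sfn met it only through the 3 BSN arrays. Neither supports the counts, and the list median includes both. Sqstm1, the autophagy adaptor p62 that gathers with keratins in inclusion bodies, was 1.73-fold higher in HRG than in PTN. Casp6, a caspase that cleaves Krt18, was 1.82-fold lower in HRG. Tradd, a death receptor adaptor that binds Krt18, averaged 1100 ± 86.4 in HRG and 620 ± 103 in PTN. The other higher genes, Ywhah, Prkce and Ywhab, lost their calls when an array was left out. Ywhab lost its call without HRG replicate 1, and Prkce without HRG replicate 1, HRG replicate 3 or PTN replicate 3. The Ywhah call was lost without HRG replicate 2, HRG replicate 3, PTN replicate 2, PTN replicate 3 or any BSN array. Median centring also removed the calls of Ywhah and Ywhab. Against BSN 2 of 16 were higher in HRG (Ywhaz and Ywhag) and Sfn was lower, beside 6.92% and 8.86% of all tested probe sets; both higher calls were lost without HRG replicate 2 (adjusted p = 0.177 and 0.173), HRG replicate 3, PTN replicate 2, PTN replicate 3 or any BSN array. In PTN against BSN 3 were higher (Ywhaz, Casp6 and Ywhag) and 5 lower (Sfn, Ywhab, Sqstm1, Tradd and Prkce), beside 9.15% and 13.4% of all tested probe sets, and the calls of Casp6, Ywhag and Prkce were lost without PTN replicate 3 (0.0513, 0.0928 and 0.1) or BSN replicate 3. Sfn, a 14-3-3 protein of epithelia that binds phosphorylated keratins, averaged 530 ± 115 in PTN and 1432 ± 234 in BSN. Ywhaz, a further 14-3-3 protein, averaged 40300 ± 2240 in PTN and 25568 ± 1439 in BSN, while Ywhab, of the same family, averaged 12053 ± 254 in PTN and 19802 ± 1316 in BSN.

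Transcription factors tied to keratin genes or epithelial programmes had 9 measured members above the filter. In HRG against PTN 4 were higher (Klf5, Klf6, Jun and Elf3), none was lower and 5 did not pass, with a median log2 difference of 0.40 (all tested probe sets, 14.1% higher and 11.7% lower). Klf5, a zinc finger factor of simple and stratified epithelia, averaged 3436 ± 605 in HRG and 1311 ± 137 in PTN (limma adjusted p = 0.000644). The calls of Jun and Elf3 were lost without HRG replicate 2 (adjusted p = 0.0789 and 0.0623), and Elf3 also without HRG replicate 1 or PTN replicate 3. Median centring removed both calls too (0.1187 and 0.05111). Against BSN 2 were higher in HRG, Klf5 (2.00-fold) and Klf6 (1.93-fold), and none was lower, beside 6.92% and 8.86% of all tested probe sets. In PTN against BSN none of the 9 passed, and 1 did, as lower, without PTN replicate 1 or without BSN replicate 2; 9.15% of all tested probe sets were higher and 13.4% lower.

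Intermediate filament genes other than keratins had 8 measured members above the filter. In HRG against PTN 3 were higher (Synm, Nefh and Lmna) and 2 lower (Lmnb1 and Lmnb2), with a median log2 difference of 0.39, where 14.1% of all tested probe sets were higher and 11.7% lower. Synm, encoding synemin, a filament protein that joins other filaments to the cell cortex, averaged 6529 ± 881 in HRG, 2126 ± 158 in PTN and 2413 ± 153 in BSN. It rose 3.04-fold in HRG against PTN (limma adjusted p = 4.98e-06) and 2.68-fold against BSN. Nefh, a neurofilament chain, averaged 1018 ± 116 in HRG, 104 ± 32.6 in PTN and 232 ± 62.3 in BSN. It too met the filter only through the 3 HRG arrays, so its calls are no support for the counts, and the list median includes it. Lmnb1, the nuclear lamin B1, averaged 13289 ± 960 in HRG and 26120 ± 4759 in PTN. The Lmna call was lost without PTN replicate 1 (adjusted p = 0.068), HRG replicate 1 or HRG replicate 2. Median centring (0.07939) and quantile normalization (0.05697) also removed it. Vim, the filament protein of mesenchymal cells, averaged 745 ± 329 in HRG and 1502 ± 335 in BSN, and this call did not hold when HRG replicate 2 (adjusted p = 0.0709), HRG replicate 3 (0.178), PTN replicate 2 (0.0514) or either of BSN replicates 1 and 2 (0.144 each) was left out. Lmnb1 was also lower in HRG than in BSN, which was lost without PTN replicate 3 or any single HRG or BSN array (adjusted p up to 0.173). In PTN against BSN Lmnb1 was higher, a call lost without BSN replicate 3 (0.0602), and Nes, the filament protein nestin, was lower, at 710 ± 321 in PTN and 1433 ± 156 in BSN, which did not pass without BSN replicate 2 (0.0535) or without BSN replicate 3 (0.0761).

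**Figure D5:**
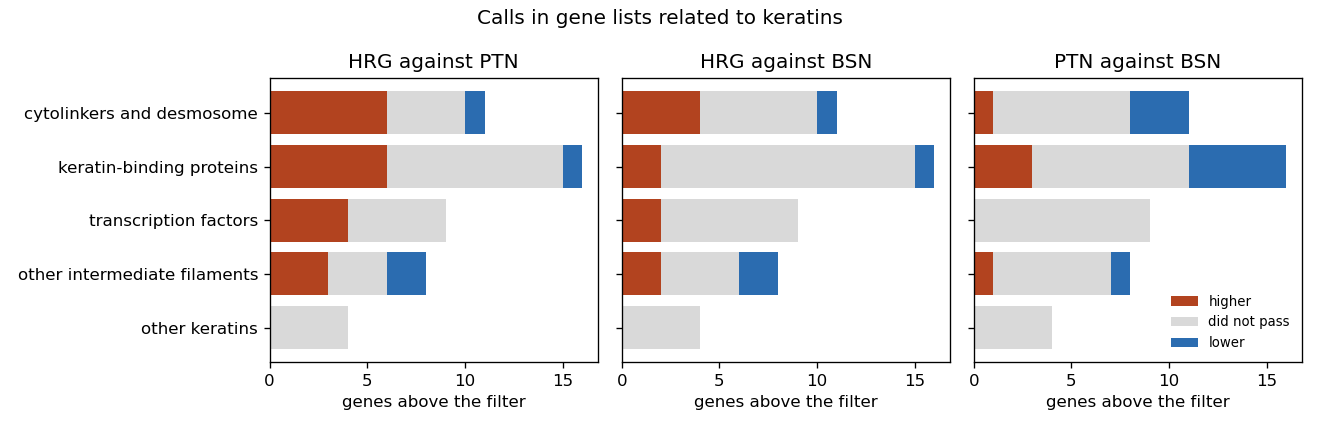
Number of measured genes above the filter (horizontal axis) that were higher, did not pass or were lower in the first-named medium of each comparison, for 4 gene lists related to keratins and for the other keratins. The cytolinkers and the keratin-binding proteins each show 6 higher and 1 lower in HRG against PTN. Among all tested probe sets 14.1% were higher and 11.7% lower in that comparison. Of the 6 higher cytolinkers 1 (Evpl), and of the 6 higher keratin-binding proteins 1 (Hspb1), met the filter only through the HRG arrays. Neither gene supports the counts. The other keratins show none higher or lower in any comparison.

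The genes whose signals followed each keratin most closely were named by Pearson's r over the 9 arrays, among singly named probe sets brighter than the median. The arrays form 3 groups, so r mainly reflects the group means, and it is given as a description. Krt19 was followed by Gata2 (r = 0.986), a zinc finger transcription factor, and by Ech1, Ampd3, Synm and Tc2n (0.984 to 0.976). Gata2 averaged 11438 in HRG, 4455 in PTN and 5129 in BSN. Krt7 was followed by Asns (r = 0.987), the asparagine synthetase, and by Erbin, Tgm2, Bok and Nfat5 (0.985 to 0.979). Asns averaged 6799 in HRG, 1953 in PTN and 7137 in BSN. Krt18 was followed by Tagln2 (r = 0.976), an actin-binding protein, and by Bok, Nfat5, Dbndd2 and Kiaa1191 (the lowest at 0.97), so Bok and Nfat5 stood among the 5 closest genes of both Krt7 and Krt18. Krt8 was followed by Shisa5 (r = 0.987) and by Phf20, Mrpl44, Mtg1 and Lad1 (0.969 to 0.952). Shisa5 averaged 7694 in HRG, 5631 in PTN and 6817 in BSN. None of the 5 closest genes of Krt19 was among those of the other keratins.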

How the data were processed

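The authors deposited 1 table of 15923 probe sets with GCOS signal intensity values on 9 Affymetrix arrays. GCOS is named in the submitters' processing notes; which version was run is not given in the sources used here. Per the labels, total RNA was amplified by double in vitro transcription. As background, such amplification favours 3' ends. The 2% trimmed mean of each array was 2500.48 to 2500.58, so the deposited intensity values were used unscaled. After 57 control probe sets were set aside, 10106 of 15866 passed the filter. The platform's table named 12789 probe sets singly, 312 with several genes and 2822 not at all, and 12754 were matched to RefSeq by Entrez ID, with 0 symbols changed.

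Signals were fitted as log2(signal + 16) with R 4.3.3 and limma 3.58.1 (lmFit, contrasts.fit, eBayes with an intensity trend), all 9 arrays in one fit with 6 residual degrees of freedom, 12.74 after moderation. Fold changes are on that scale. The fit and the permutation test were tested on simulated data. The members, gene lists and tests were chosen with earlier results of these data known. A list gene enters by its brightest kept probe set. Names follow a rule: all keratins above the filter, up to 2 highest and 2 lowest called members of each list in HRG against PTN, and the 5 genes most like each keratin. Other list members were named after their values were seen, to complete short counts. Whether equal replicate numbers pair arrays was checked from how their deviations from the group means correlate, which was 0.118 to 0.332 for HRG and PTN and did not stay over 0.1 for the other comparisons. Alternatives were quantile normalization, median centring, pseudocounts of 1 and 64, no filter, the 60th percentile, no trend, array weights, only the media compared, a replicate block and each array left out. Figures used Python 3.11.15 and matplotlib 3.10.9.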

Additional observations from a re-analysis of the deposited data

How the results depend on the processing

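Over all alternatives to the 12 keratin comparisons, 215 of 228 values kept direction and side of the threshold. Krt8 in PTN against BSN accounts for 12 of the others: its log2 difference was -0.20 with median centring (adjusted p = 0.31), and -0.41 with no filter (0.0739), no intensity trend (0.0732) or only the media compared (0.0886), and -0.56 to -0.32 with single arrays left out. The remaining value is Krt18 in HRG against BSN, -0.0111 after quantile normalization. The cause was not tested. With a replicate block no keratin call changed, and Krt7 in HRG against PTN stayed at 2.08 (adjusted p = 1.76e-05). Of 78 values for the 6 differences between keratins, 76 kept their side of the threshold, and the paired test gave 0.111 for Krt19 minus Krt8 and Krt19 minus Krt7, where the smallest p it can give is 0.0278. Called probe sets numbered 2603 in HRG against PTN, 1594 in HRG against BSN and 2276 in PTN against BSN. Array weights gave 2439 and 3480 for the last 2. Leaving out single arrays gave 1053 (without HRG replicate 3) to 2225 in HRG against BSN, and 1358 (without BSN replicate 3) to 3222 in PTN against BSN. Median centring turned the split of higher and lower calls to 943 and 1452 in HRG against PTN (1423 and 1180 as deposited), 855 and 623 in HRG against BSN (699 and 895) and 1598 and 645 in PTN against BSN (925 and 1351). Of the calls in the 4 lists related to keratins, 9 of 23, 8 of 14 and 8 of 14 were lost under at least 1 other scaling, the block or 1 array left out, checks added after seeing the data. Signals below the 40th percentile limit what can be said of the other keratins.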
